A study of Arabidopsis thaliana with 10 samples.

Results

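The beta-tubulin family of Arabidopsis thaliana was followed through 4 RNA-seq libraries of the inflorescence stem. The family comprises 9 genes, TUB1 to TUB9, among the 23615 genes listed in each library. Its members were taken by locus, with earlier results of these data known. All 9 reached at least 1 FPKM in at least 1 library, the minimum for a gene to be compared, as did 18858 genes in all. FPKM is a fragment count divided by transcript length and by the mapped fragments of its library.

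Plants had been grown to a stem height of 20 cm under 16 h of light and 8 h of dark at 22 °C, and the stem was divided from the top. The libraries were segment II of an atx1 mutant (5 to 7 cm below the tip) and, in the wild type (WT, accession Col), segments I, II and III, taken 0 to 3 cm, 5 to 7 cm and 10 to 12 cm below the tip. Each group was 1 library of whole stem tissue, with no allele named for atx1 and no number of plants given. There were thus no replicates, so no difference below has an error or a test, and each describes these libraries only.

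ATX1 (AT2G31650) encodes a methyltransferase of lysine 4 on histone H3. Its transcript was at 21.76 FPKM in the library labelled atx1 II, against 4.02, 6.09 and 3.54 FPKM in WT I, WT II and WT III. The level of the targeted gene therefore did not bear out the label, and every direction drawn from that library rests on the label alone. The tables hold 1 value per gene, so the part of the ATX1 transcript that was sequenced cannot be seen. Depth, read from the steps of 1 fragment in short genes, was about 19100000 to 20100000 fragments per library.

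Microtubules are polymers of heterodimers, each made of an alpha- and a beta-tubulin. In plant cells they form the spindle and the phragmoplast during division, and in growing or wall-thickening cells they form the cortical array, along which cellulose synthase complexes move. Different beta-tubulin genes encode closely similar proteins, and their transcripts can be distributed differently over organs and cell types. In whole stem segments, fewer cells of a type and less RNA per cell cannot be told apart.

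The family did not behave as a block. In segment II of the wild type relative to segment I, TUB6 and TUB8 were higher by more than 2-fold, TUB1, TUB2, TUB3, TUB5 and TUB7 were lower by more than 2-fold, and TUB4 and TUB9 lay within 2-fold. Between segments III and II all 9 genes lay within 2-fold. TUB6, TUB8 and TUB1 were lower by more than 2-fold in the library labelled atx1 II than in WT II, and the other 6 lay within 2-fold. Differences are given on the scale of log2(FPKM + 1), which understates those of low genes, and a gene is called higher or lower at a difference of 1 or more, that is 2-fold.

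**Figure D1:**
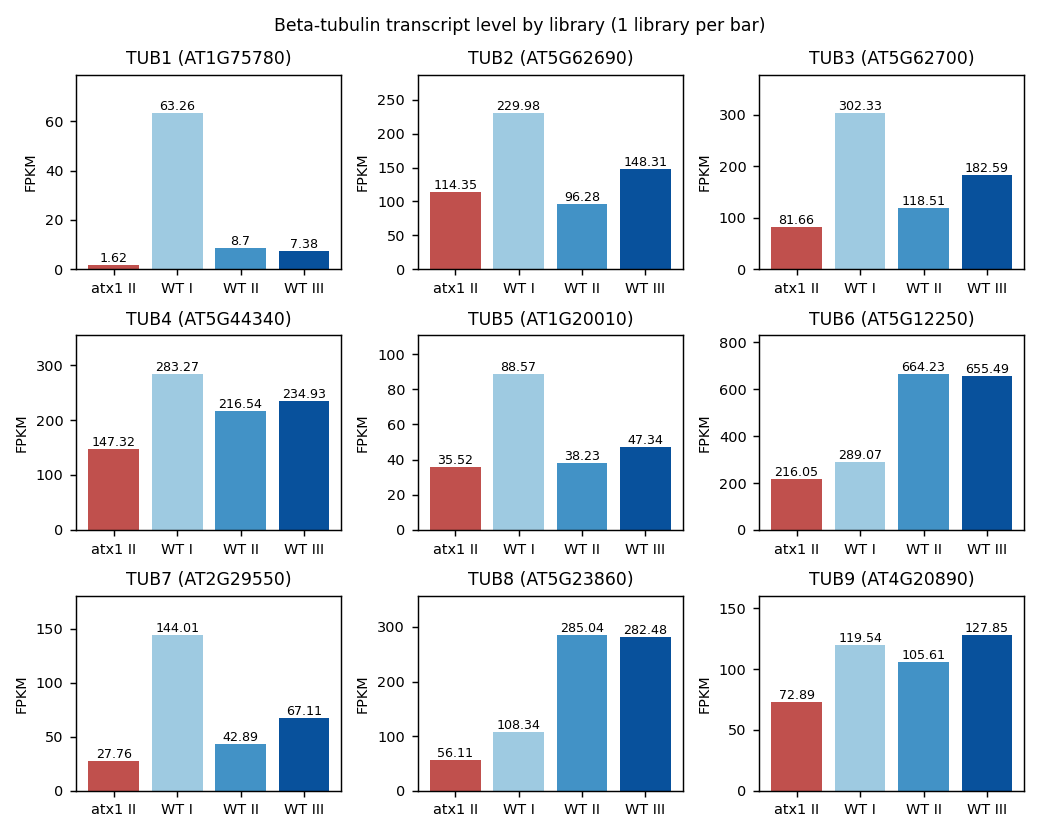
Transcript level of each beta-tubulin gene in FPKM (vertical axes, each from 0) in the library labelled atx1 II and in WT I, WT II and WT III, with 1 library per bar and no error bars. TUB6 and TUB8 have their highest bars in WT II, whereas TUB1, TUB2, TUB3, TUB4, TUB5 and TUB7 have theirs in WT I, and TUB9 in WT III.

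TUB6 (AT5G12250) was the most abundant beta-tubulin transcript in 3 of the 4 libraries. It stood at 216.05 FPKM in the library labelled atx1 II, and at 289.07, 664.23 and 655.49 FPKM in WT I, WT II and WT III. The library labelled atx1 II had the lowest of these values, and WT II and WT III had nearly equal ones. The difference was 1.20 for WT II over WT I, -0.02 for WT III over WT II and -1.62 for the library labelled atx1 II over WT II.

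TUB8 (AT5G23860) had the same shape at a lower level. It was at 56.11 FPKM in the library labelled atx1 II, and at 108.34, 285.04 and 282.48 FPKM in WT I, WT II and WT III. WT II and WT III again stood well above the other libraries. The difference of WT II over WT I was 1.39, the largest positive one of the family, and that for the library labelled atx1 II over WT II was -2.32. The level of TUB8 there was 5.08-fold below that of WT II. Of all 18858 genes compared, 1.20% were at least as low as TUB8 in the library labelled atx1 II relative to WT II, and 3.43% at least as low as TUB6.

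TUB1 (AT1G75780), whose transcript is known in Arabidopsis mainly from roots, was the least abundant member in every library. It was at 1.62 FPKM in the library labelled atx1 II, and at 63.26, 8.70 and 7.38 FPKM in WT I, WT II and WT III. Segment I thus stood far above every other library. The level in WT II was 7.27-fold lower than that of WT I and the level in WT III 8.57-fold lower, and 1.10% of all genes were at least as low as TUB1 in WT II relative to WT I. The library labelled atx1 II was 5.37-fold below WT II. At the estimated depth, 1.62 FPKM stands for about 31 fragments per kilobase of transcript, against about 167 in WT II, so this comparison rests on few fragments.

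TUB7 (AT2G29550) was at 27.76 FPKM in the library labelled atx1 II, and at 144.01, 42.89 and 67.11 FPKM in WT I, WT II and WT III. Segment I was again the highest, and segment III lay between I and II. The difference was -1.72 for WT II over WT I and -1.09 for WT III over WT I. That for the library labelled atx1 II over WT II was -0.61, within 2-fold.

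TUB2 (AT5G62690) and TUB3 (AT5G62700) are neighbouring genes on chromosome 5 that encode the same protein, with no protein-coding gene between them in the RefSeq table. TUB2 was at 114.35 FPKM in the library labelled atx1 II, and at 229.98, 96.28 and 148.31 FPKM in WT I, WT II and WT III. TUB3 was at 81.66 FPKM in the library labelled atx1 II, and at 302.33, 118.51 and 182.59 FPKM in WT I, WT II and WT III. TUB2 stood 1.40-fold above TUB3 in the library labelled atx1 II. The order was the other way in the wild type, where TUB3 was the higher of the pair by 1.31-fold in WT I and by 1.23-fold in both WT II and WT III. Fragments that fit both genes may have been split between them in ways the sources used here do not describe, so the level of each is uncertain. The pair added together was at 196.01 FPKM in the library labelled atx1 II, and at 532.31, 214.79 and 330.90 FPKM in WT I, WT II and WT III.

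Both genes of the pair were lower in segment II of the wild type than in segment I, TUB2 with a difference of -1.25 and TUB3 with one of -1.34. Both also shared the largest positive differences between segments III and II with TUB7, at 0.62 for each of the pair and 0.63 for TUB7, against a median of 0.19 over all genes. For the library labelled atx1 II over WT II, TUB2 had a difference of 0.25, the only positive one of the family, and TUB3 one of -0.53. The median over all genes was 0.28 there, and after scaling by the median of ratios the difference of TUB2 was -0.04.

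TUB5 (AT1G20010) was at 35.52 FPKM in the library labelled atx1 II, and at 88.57, 38.23 and 47.34 FPKM in WT I, WT II and WT III. The library labelled atx1 II and WT II were close, with a difference of -0.10, and WT I stood above both. WT II over WT I gave -1.19, past 2-fold, and WT III over WT I gave -0.89, within it.

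TUB4 (AT5G44340) and TUB9 (AT4G20890) varied least. TUB4 was at 147.32 FPKM in the library labelled atx1 II, and at 283.27, 216.54 and 234.93 FPKM in WT I, WT II and WT III. TUB9, known in Arabidopsis for its expression in pollen, was at 72.89 FPKM in the library labelled atx1 II, and at 119.54, 105.61 and 127.85 FPKM in WT I, WT II and WT III. For both genes the library labelled atx1 II was the lowest of the 4. Over the 3 wild-type libraries the range on the log2 scale was 0.39 for TUB4 and 0.27 for TUB9, against 1.19 to 2.94 for the other 7 genes. Relative to WT II, the library labelled atx1 II differed by -0.55 in TUB4 and -0.53 in TUB9, both within 2-fold.

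**Figure D2:**
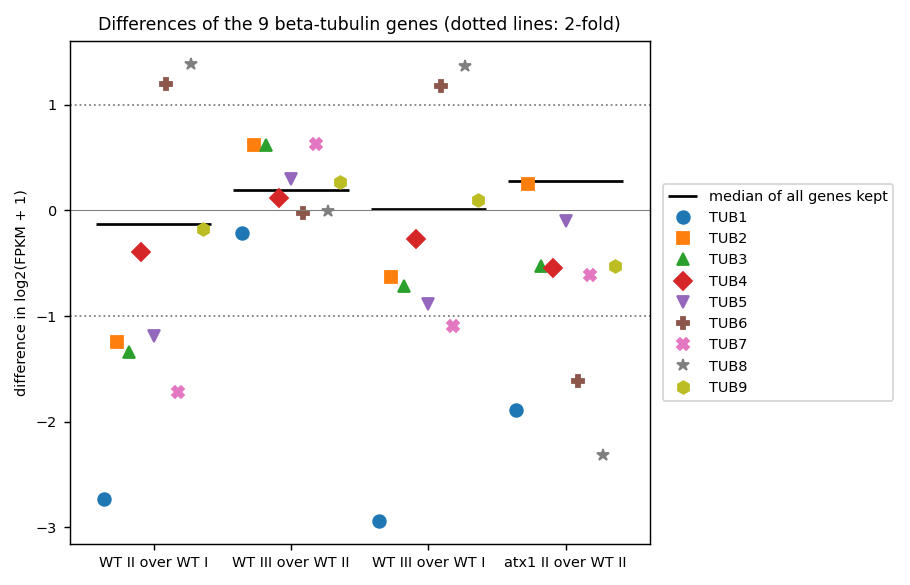
Difference in log2(FPKM + 1) of each beta-tubulin gene (symbols) in 4 comparisons, with the median of all 18858 genes compared as a black line and 2-fold as dotted lines. TUB6 and TUB8 lie above 1 for WT II over WT I and below -1 for the library labelled atx1 II over WT II, and no symbol lies past 2-fold for WT III over WT II.

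Counted over the family, 5 of 9 genes were lower in WT II relative to WT I, where 16.1% of all genes were, and 2 of 9 were higher, where 9.88% of all genes were. The family's median difference was -1.19, and that of all genes was -0.13. Between WT III and WT II 0 of 9 genes passed 2-fold in either direction, against 2.85% of all genes higher and 2.35% lower, so the count is near the background. Its median was 0.27 there, against 0.19 over all genes.

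In WT III relative to WT I, 4 of the 9 genes passed 2-fold. TUB6 and TUB8 were higher, by 1.18 and 1.37, and TUB1 and TUB7 were lower, where 12.0% of all genes were higher and 12.4% lower. TUB2, TUB3 and TUB5 lay within 2-fold in this comparison, with differences of -0.63, -0.72 and -0.89. The WT II and WT III comparisons share WT I.

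Set against WT II, the library labelled atx1 II had 3 of 9 genes lower, where 8.32% of all genes were, and 0 of 9 higher, where 14.1% of all genes were. The family's median difference was -0.55, and that of all genes was 0.28. When WT III was set in place of WT II, 5 of 9 genes were lower, where 9.03% of all genes were, and 0 were higher, where 9.61% of all genes were, with a median of -1.15. TUB3 and TUB7, with differences of -1.15 and -1.24, were then added to TUB1, TUB6 and TUB8. The difference of TUB8 was -2.32 against WT II and -2.31 against WT III, and that of TUB6 was -1.62 against WT II and -1.60 against WT III. This comparison shares its WT II library with that of WT II and WT I, so the differences of TUB6 and TUB8 in the 2 comparisons are not independent.

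The summed level of the family was 753.28 FPKM in the library labelled atx1 II, and 1628.37, 1576.03 and 1753.48 FPKM in WT I, WT II and WT III. The library labelled atx1 II was at 0.478 times the level of WT II, and lower than WT II by more than 2-fold under each scaling run. Along the wild-type stem the sum lay within 2-fold, whereas 7 of its 9 members did not. The difference of WT II over WT I was -0.05 as deposited and 0.14 after scaling by the median of ratios, so its sign depended on the scaling.

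The make-up of this pool differed along the wild-type stem. TUB6 and TUB8 together held 24.4% of the summed FPKM in WT I, 60.2% in WT II and 53.5% in WT III. TUB1, TUB2, TUB3, TUB5 and TUB7, the 5 genes lower in WT II relative to WT I, held 50.9% in WT I, 19.3% in WT II and 25.8% in WT III. TUB4 and TUB9 together held 24.7%, 20.4% and 20.7% in the same libraries. FPKM is per length, so levels of different genes in a library can be set side by side.

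TUB6 and TUB8 together held 36.1% of the pool in the library labelled atx1 II, against 60.2% in WT II. Their summed level was 272.16 FPKM there, against 949.27 FPKM in WT II. TUB1, TUB2, TUB3, TUB5 and TUB7 together were at 260.91 FPKM in the library labelled atx1 II, against 304.61 FPKM in WT II, and held 34.6% of the pool there, against 19.3% in WT II.

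**Figure D3:**
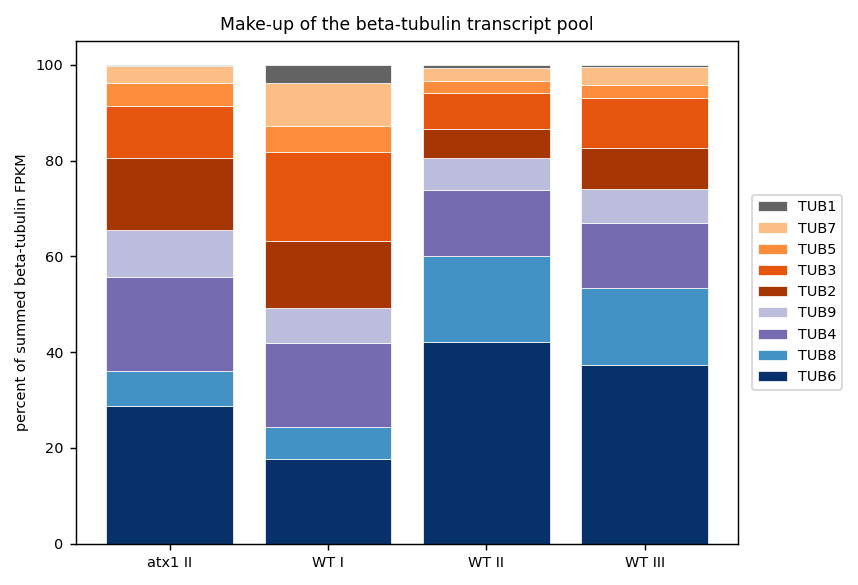
Share of each beta-tubulin gene in the summed beta-tubulin FPKM (percent, vertical axis) in the library labelled atx1 II, WT I, WT II and WT III, with 1 library per bar. The blue parts, TUB6 and TUB8, make up 36.1% in the library labelled atx1 II, 24.4% in WT I, 60.2% in WT II and 53.5% in WT III.

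The order of the levels differed between libraries. In the library labelled atx1 II it ran TUB6, TUB4, TUB2, TUB3, TUB9, TUB8, TUB5, TUB7 and TUB1, with 7 of 8 steps between neighbours under 2-fold. The exception was the step of 17.14-fold from TUB7 to TUB1. In WT I the order was TUB3, TUB6, TUB4, TUB2, TUB7, TUB9, TUB8, TUB5 and TUB1, and none of the 8 steps between neighbours reached 2-fold, the largest being 1.60-fold from TUB2 to TUB7. In WT II the order was TUB6, TUB8, TUB4, TUB3, TUB9, TUB2, TUB7, TUB5 and TUB1. There 5 of 8 steps were under 2-fold, and those from TUB6 to TUB8 (2.33-fold), TUB2 to TUB7 (2.24-fold) and TUB5 to TUB1 (4.39-fold) were not. TUB8 was thus in place 7 in WT I and in place 2 in WT II and WT III.

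WT III kept the order of WT II except that TUB2 stood above TUB9, with 6 of 8 steps under 2-fold. With no replicates, the spread against which neighbouring levels could be judged is not known.

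The members were also compared by their profiles, each taken as log2(FPKM + 1) less its mean over the 4 libraries. The nearest pair was TUB4 and TUB9, at a Euclidean distance of 0.26, followed by TUB2 and TUB5 (0.31) and TUB3 and TUB7 (0.35). TUB6 and TUB8 were 0.58 apart, and each was nearer to the other than to any further member. TUB2 and TUB3 were 0.71 apart, farther than TUB2 was from TUB5. The greatest distances were those of TUB1 from TUB6 (3.54) and from TUB8 (3.53). Each profile rests on 4 libraries. Profiles were not scaled to a common range, so genes that vary little, such as TUB4 and TUB9, lie near each other for that reason too. The distances of TUB2 and TUB3 carry the uncertainty of their single levels.

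Secondary wall cellulose synthases shared the direction of TUB6 and TUB8 both in the library labelled atx1 II relative to WT II and in WT II relative to WT I. CESA4, CESA7 and CESA8 form the catalytic core that makes cellulose of thickened walls. Together they were at 365.62 FPKM in the library labelled atx1 II, and at 79.68, 1312.10 and 1616.64 FPKM in WT I, WT II and WT III. All 3 were lower in the library labelled atx1 II than in WT II, with a median difference of -1.90, which lies between those of TUB6 (-1.62) and TUB8 (-2.32). They were higher in WT II relative to WT I, with a median of 4.14, against 1.20 for TUB6 and 1.39 for TUB8. Their sum in the library labelled atx1 II stood above that of WT I, whereas TUB6 and TUB8 each stood below their level in WT I. The wider list of 7 wall-thickening markers, which includes these 3, the switches SND1 and NST1 and the xylem peptidases XCP1 and XCP2, summed to 559.58 FPKM in the library labelled atx1 II, and to 278.44, 1980.83 and 2125.70 FPKM in WT I, WT II and WT III, with none at 0. Of these 7 genes 5 were lower in the library labelled atx1 II than in WT II, where 8.32% of all genes were. The 5 include the 3 CESA genes, and the switches SND1 and NST1 lay within 2-fold, at -0.68 and -0.65. In WT II relative to WT I, 6 of the 7 were higher, where 9.88% of all genes were. Their part in the levels of TUB6 and TUB8 was not tested.

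Genes of cell division were highest in WT I, as were TUB1, TUB2, TUB3, TUB5 and TUB7. The 6 markers (PCNA1, KN, CDC20.1, CYCB1;1, CDKB2;1 and CDKB2;2) summed to 18.48 FPKM in the library labelled atx1 II, and to 132.12, 27.96 and 46.62 FPKM in WT I, WT II and WT III, with none at 0. None passed 2-fold between the library labelled atx1 II and WT II. Of all genes 14.1% were higher and 8.32% lower there, so that count is near the background. All 6 were lower in WT II relative to WT I, where 16.1% of all genes were. Their median difference was -1.97, against -0.13 over all genes. WT III stood above WT II in this sum, as it did for TUB2, TUB3, TUB5 and TUB7 and not for TUB1. It also did so for TUB4 (0.12) and TUB9 (0.27), and the median over all genes was 0.19 there. The difference of TUB5 was 0.30, and 0.10 after scaling by the median of ratios. The part of the cell division genes in the levels of the tubulin genes was not tested.

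**Figure D4:**
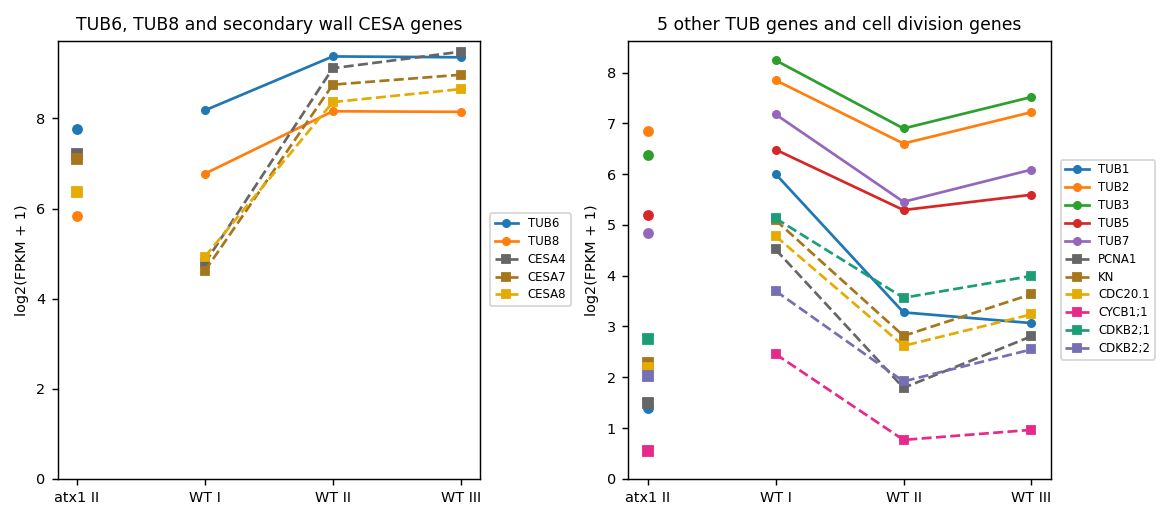
Levels as log2(FPKM + 1) (vertical axes) in the library labelled atx1 II (unconnected symbols) and in WT I, WT II and WT III (connected), with 1 library per point. Left, TUB6 and TUB8 (solid lines) with CESA4, CESA7 and CESA8 (dashed) are higher in WT II and WT III than in WT I. Right, TUB1, TUB2, TUB3, TUB5 and TUB7 (solid lines) are highest in WT I, as are 6 cell division genes (dashed).

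Markers of other tissues differed between the libraries too. The 5 epidermal markers summed to 292.94 FPKM in the library labelled atx1 II, and to 1142.15, 814.16 and 589.77 FPKM in WT I, WT II and WT III. Most of the gap between the library labelled atx1 II and WT II in this sum lay in CER1, a gene of wax synthesis, at 5.64 FPKM in the library labelled atx1 II, against 355.28 FPKM in WT II. It was the 1 epidermal marker past 2-fold in that comparison, where the median of the 5 was -0.14 and ATML1 had a difference of 0.39. PDF1 was listed at 0 in the library labelled atx1 II, at 42.94 FPKM in WT I and at 0.04 FPKM in WT II, and was again listed at 0 in WT III. The 5 phloem markers summed to 1281.03 FPKM in the library labelled atx1 II, and to 200.88, 714.25 and 395.39 FPKM in WT I, WT II and WT III, with none at 0. The sugar exporter genes SWEET11 and SWEET12 carried the higher sum, SWEET11 at 610.66 FPKM in the library labelled atx1 II, against 213.67 FPKM in WT II, and SWEET12 at 467.22 FPKM, against 243.94 FPKM in WT II. Only SWEET11 passed 2-fold there, and SUC2, APL and SEOR1 had differences of -0.14, -0.06 and -0.91, the median of the 5 being -0.06. Flower organ markers, 5 in all, summed to 2.60 FPKM in the library labelled atx1 II, and to 9.09, 3.03 and 2.24 FPKM in WT I, WT II and WT III. Of these, AP3 was listed at 0 in the library labelled atx1 II, and AP3, PI and AG were listed at 0 in WT II and in WT III. The part of these tissues in the levels of the beta-tubulin genes was not tested.

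Genes nearest in profile were sought for TUB1, TUB7 and TUB8, the 3 members with the widest range over the 4 libraries, among 6096 named genes that reached 10 FPKM. For TUB8 they were GALT1 (distance 0.22), a galactosyltransferase of N-glycans, MSR1 (0.25), a gene of mannan synthesis, and IDD16 (0.27), a zinc finger gene. MSR1 was at 43.03 FPKM in the library labelled atx1 II, and at 84.48, 200.80 and 253.24 FPKM in WT I, WT II and WT III. As with TUB8, the library labelled atx1 II was the lowest and WT II and WT III stood above WT I.

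For TUB7 the nearest were PDCB1 (0.16), which encodes a callose-binding protein of plasmodesmata, EDS1 (0.16), a regulator of immunity, and CDKB2;1 (0.17), a kinase of the cell cycle. PDCB1 was at 23.38 FPKM in the library labelled atx1 II, and at 105.54, 31.89 and 52.05 FPKM in WT I, WT II and WT III. EDS1 was at 13.44 FPKM in the library labelled atx1 II, and at 66.51, 22.29 and 35.51 FPKM in WT I, WT II and WT III. CDKB2;1 was at 5.75 FPKM in the library labelled atx1 II, and at 34.04, 10.84 and 14.95 FPKM in WT I, WT II and WT III. For TUB1 they were BZIP34 (0.40), SPL15 (0.43) and EXO (0.43), the last known from brassinosteroid-promoted growth. EXO was at 26.30 FPKM in the library labelled atx1 II, and at 695.78, 116.55 and 127.35 FPKM in WT I, WT II and WT III. BZIP34 and SPL15 were at 0.19 and 0.05 FPKM in the library labelled atx1 II, levels at which the log2(FPKM + 1) scale flattens differences.

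Alpha-tubulin, the partner of beta-tubulin in the heterodimer, is encoded by 6 genes, TUA1 to TUA6. Over the 3 wild-type libraries their range on the log2 scale was 0.23 to 1.45, against 0.27 to 2.94 for the beta-tubulin genes. In WT II relative to WT I, TUA3 and TUA5, neighbouring genes that encode the same protein, were lower, with differences of -1.31 and -1.45, and the other 4 lay within 2-fold. TUA2, the highest in WT II, was at 493.24, 693.99 and 680.09 FPKM in WT I, WT II and WT III, with a difference of 0.49 for WT II over WT I. No alpha-tubulin gene was higher by 2-fold in this comparison, where 9.88% of all genes were, so 0 of 6 is near the background. The 2 lower genes compare with 16.1% of all genes lower. TUB6 and TUB8 were higher there. All 6 alpha-tubulin genes lay within 2-fold between WT III and WT II, where 2.85% of all genes were higher and 2.35% lower.

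TUA2, TUA4 and TUA6 were lower in the library labelled atx1 II than in WT II, with differences of -2.48, -1.95 and -1.46. These were 3 of 6 genes, against 8.32% of all genes lower in that library. TUA2 was at 123.88 FPKM there, against 693.99 FPKM in WT II. These 3 genes together were at 412.89 FPKM, against 1622.51 FPKM in WT II, and TUA3 and TUA5 together were at 181.86 FPKM, against 197.37 FPKM in WT II. As genes of close sequence, alpha-tubulins may share fragments, so single levels are uncertain. TUA1, known in Arabidopsis as a pollen alpha-tubulin, was at 62.71 FPKM in the library labelled atx1 II, against 29.32, 33.93 and 36.12 FPKM in WT I, WT II and WT III. Its difference from WT II, 0.87, lay within 2-fold. The 4 pollen markers VGD1, VGDH1, SKS13 and PRK4 summed to 12.97 FPKM in the library labelled atx1 II, against 1.15, 4.40 and 0.31 FPKM in WT I, WT II and WT III, with VGD1 listed at 0 in WT III. Among the wild-type libraries TUA1 was highest in WT III, where the sum of the pollen markers was lowest. For WT III over WT II the difference of TUA1 was only 0.09, against a median of 0.19 over all genes, so this order rests on little. TUB9, also known from pollen, was at 72.89 FPKM in the library labelled atx1 II, against 105.61 FPKM in WT II. The part of the pollen markers in the levels of TUA1 and TUB9 was not tested.

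Summed over each family, alpha-tubulin was at 657.46 FPKM in the library labelled atx1 II, and at 2137.56, 1853.81 and 2053.70 FPKM in WT I, WT II and WT III. The ratio of alpha- to beta-tubulin was 0.87 in the library labelled atx1 II, against 1.31, 1.18 and 1.17 in WT I, WT II and WT III. The library labelled atx1 II was the only one of the 4 in which the alpha-tubulin sum was below the beta-tubulin sum. The ratio does not depend on the scaling between libraries.

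**Figure D5:**
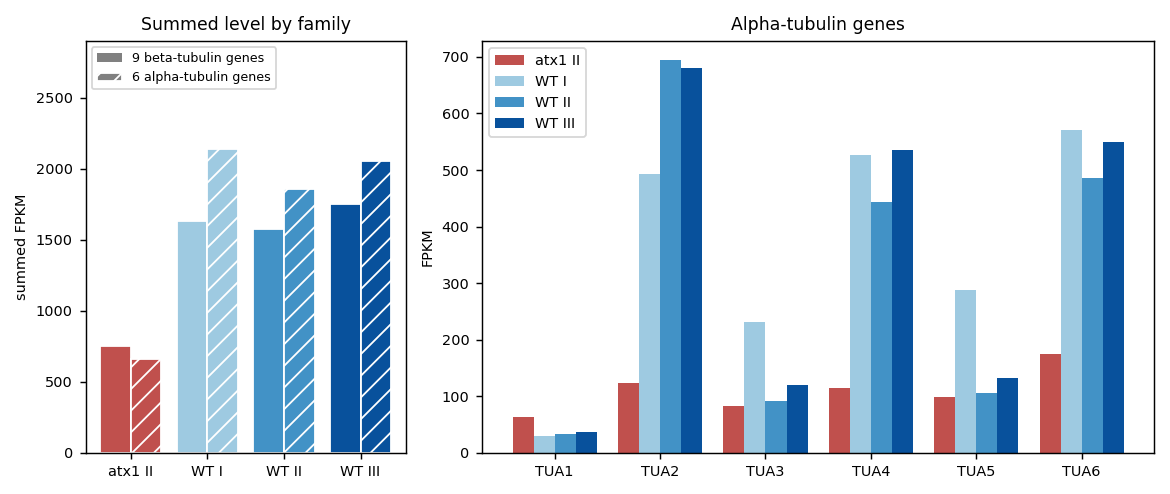
Left, summed FPKM of the 9 beta-tubulin genes (plain) and the 6 alpha-tubulin genes (hatched) in the library labelled atx1 II, WT I, WT II and WT III. Right, FPKM of each alpha-tubulin gene in the same libraries, with 1 library per bar. TUA2, TUA4 and TUA6 are lowest in the library labelled atx1 II, and TUA1 is highest there.

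The counts for other microtubule genes are to be read against the shares of all genes, which were 14.1% higher and 8.32% lower in the library labelled atx1 II relative to WT II, and 9.88% higher and 16.1% lower in WT II relative to WT I. Prefoldin passes new tubulin chains to a chaperonin, and 3 of its 6 subunit genes were lower in WT II relative to WT I (median -0.96), among them PFD5 (14.27 FPKM in WT II, against 32.05 FPKM in WT I) and PFD3 (25.72 FPKM, against 54.26 FPKM in WT I). None of the 6 passed 2-fold in the library labelled atx1 II relative to WT II (median 0.57, against 0.28 over all genes). None of the 4 folding cofactors (TFCA, TFCC, TFCD and TFCE) passed 2-fold in either comparison, with medians of -0.57 for WT II over WT I and 0.10 for the library labelled atx1 II over WT II. Of 7 genes of gamma-tubulin and its complex, which nucleate microtubules, only the gamma-tubulin gene TUBG1 was lower in WT II relative to WT I (3.40 FPKM, against 10.27 FPKM in WT I). The median of these 7 was -0.79 in that comparison, and none passed 2-fold in the library labelled atx1 II relative to WT II (median 0.29).

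MAP65 proteins bundle microtubules, and of 8 genes compared 2 were higher and 4 lower in WT II relative to WT I (median -1.10), where 9.88% of all genes were higher and 16.1% lower. MAP65-8 was at 34.59 FPKM in WT II, against 5.04 FPKM in WT I, and MAP65-2 was at 6.44 FPKM, against 29.02 FPKM in WT I. Of the same 8, 1 was higher and 2 were lower in the library labelled atx1 II than in WT II (median -0.24), MAP65-8 being at 11.62 FPKM, against 34.59 FPKM in WT II, and MAP65-7 at 80.02 FPKM, against 28.38 FPKM in WT II. MAP65-8, TUB6 and TUB8 were thus all lower in the library labelled atx1 II than in WT II and higher in WT II relative to WT I. MAP65-6, the other MAP65 gene higher in WT II relative to WT I (1.02), did not share both directions. Its difference was 0.32 for the library labelled atx1 II over WT II.

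Of the 5 MAP70 genes, MAP70-5, known from the patterning of xylem walls, was at 154.12 FPKM in the library labelled atx1 II, and at 1.20, 53.75 and 45.47 FPKM in WT I, WT II and WT III. It was thus highest in the library in which TUB6 and TUB8 were lowest. Of the others, 2 were lower in WT II relative to WT I and none passed 2-fold in the library labelled atx1 II relative to WT II. Among 14 plus-end, severing and other regulators, 3 were lower in WT II relative to WT I (median -0.34), where 16.1% of all genes were, among them the spindle factor TPX2 at 2.31 FPKM, against 12.65 FPKM in WT I, and the plus-end protein EB1C at 2.97 FPKM, against 14.82 FPKM in WT I. Of these 14, 2 were lower in the library labelled atx1 II than in WT II (median -0.42), where 8.32% of all genes were, EB1B at 3.69 FPKM, against 10.06 FPKM in WT II, and MIDD1, which acts in the pitting of xylem walls, at 6.01 FPKM, against 14.24 FPKM in WT II. Cellulose synthases of primary walls, 5 in all, had 0 past 2-fold in WT II relative to WT I (median -0.30). CESA5 was the 1 lower gene among them in the library labelled atx1 II, at 20.13 FPKM, against 55.69 FPKM in WT II. CESA1, CESA2, CESA3 and CESA6 also had negative differences there, from -0.39 to -0.94, within 2-fold. The median of the 5 was -0.60, against 0.28 over all genes.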

How the data were processed

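The authors deposited 1 table per library of FPKM to 2 decimals for 23615 genes, per the file headers. Trimmomatic, HISAT, Bowtie2, RSEM and the build TAIR10 are named for these samples, per the submitters' processing notes, with no version, role or order; the treatment of fragments shared by close paralogs is not described in them. The FPKM were used as deposited. Genes with at least 1 FPKM in at least 1 library were kept and compared as differences of log2(FPKM + 1), with a threshold of 2-fold and no test, since each group was 1 library. The other 6 of the 10 samples (H3K4me3 and input) were not analysed here. Depth was estimated by scanning for the step of 1 fragment that best fitted short genes (250 to 900 bp, under 1 FPKM): 69.5% to 72.0% of their values then came within 0.15 of whole fragments, where 30% would do so by even spacing, a low yardstick because the step was chosen on them.

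The members and the gene lists were chosen with earlier results of these data known. Named were all TUB and TUA genes, ATX1, the listed markers, from each list the 2 members with the largest difference among genes of at least 10 FPKM in the higher library, and the 3 genes nearest in profile to each of 3 TUB genes. Lists were counted over members whose name stands in the files or in the RefSeq table of assembly TAIR10.1. The CCT chaperonin list had none and, with protein and promoter sequences, was not analysed here. The calling step was run on simulated data, made of WT I values with planted differences past 2-fold and no noise. That run checks the code only and cannot show how calls behave with single libraries. Alternatives were another pseudocount (0.1), no filter, a filter of 5 FPKM, median-of-ratios and TPM scaling, TUB2 and TUB3 added together, a 1.5-fold threshold and WT III in place of WT II. Python 3.11.15 and pandas 2.3.3 were used.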

Additional observations from a re-analysis of the deposited data

How the results depend on the processing

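With 1 library per group, no result here has an error, and no alternative can supply one. The counts of beta-tubulin genes past 2-fold were the same with a pseudocount of 0.1, with no filter, with a filter of 5 FPKM and under median-of-ratios or TPM scaling. Under median-of-ratios scaling some calls for WT II over WT I lay close to the threshold. There TUB5 had a difference of -1.01 and TUB2 one of -1.06, and the family's median was -1.01. With TUB2 and TUB3 added together, 4 genes were lower in WT II relative to WT I and the median difference was -0.79, within 2-fold. A 1.5-fold threshold gave 3 higher genes in WT III relative to WT II, in place of 0, and 5 lower genes in WT III relative to WT I, in place of 2, by its construction. It gave 4 lower genes in the library labelled atx1 II relative to WT II, in place of 3. The shares of all genes given above are at 2-fold and none is given at 1.5-fold, so these counts have no background here. With WT III in place of WT II, the library labelled atx1 II had 5 lower genes and a median of -1.15; the cause was not tested. Of 217 values of single genes under these alternatives, 214 kept their side of 2-fold and moved by less than 1.5-fold where not called, TUB3 and TUB7 passed 2-fold against WT III, and TUB2 changed sign there, at -0.37. With a pseudocount of 0.1 the difference for the library labelled atx1 II over WT II was -2.36 in TUB1 and -2.34 in TUB8, so the order of the pair turned. Scaling by the median of ratios moved the median of all genes for the library labelled atx1 II over WT II to 0.03 and turned the summed beta-tubulin difference of WT III over WT II to -0.06. No paired analysis was possible because each group holds 1 library.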
